A study of Pimephales promelas with 51 samples.

Results

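The genes described here encode the proteins of the cytosolic ribosome in larvae of the fathead minnow (Pimephales promelas), a small cyprinid fish that is a standard species of ecotoxicology. They were chosen by name: ids beginning with rpl, rplp, rps or rpsa and a number where one follows, without the rps6k kinases, and with a mean of at least 10 reads per library. Of 36695 genes in the count tables, 81 ids matched the names and 79 passed the minimum, 45 of them named for the large subunit and 34 for the small one. Of the 2 ids below it, rpl14 had a mean of 5 reads per library. Just inside it lay rps19bp1, at 14.1 reads, and rpl7l1, at 53.8 reads. The id rps19bp1 is not a ribosomal protein by name but a protein that binds one, and 5 others are copies named as like another member (rpl7l1, rpl22l1, rplp2l, rps26l and rps27l). Without these 6 ids, 73 members remained, and 77 of the 79 symbols were present in the RefSeq gene table of assembly fPimPro1.hap1.1.

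The ribosome translates messenger RNA in every cell. Its small subunit decodes the message and its large subunit joins the amino acids, and each protein is needed in about 1 copy per particle, apart from the paired acidic proteins of the stalk. In vertebrates the messenger RNAs of these proteins share a terminal oligopyrimidine tract at their start, through which the mTOR kinase controls how strongly they are translated, and they are among the most abundant messages of growing tissue. Glucocorticoids are steroid hormones that act through a nuclear receptor and limit growth in fish and mammals.

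Larvae of the strain GLTED-Duluth-wt, aged 5 to 6 days after fertilisation, were exposed for 24 h to dexamethasone, to fluticasone propionate or to the solvent DMSO. Both compounds are synthetic fluorinated glucocorticoids, and fluticasone propionate carries a propionate ester and a fluoromethyl thioester that dexamethasone lacks. Dexamethasone was labelled 0.008, 0.025, 0.08, 0.25, 0.8, 2.5, 8 and 25 µM, and measured at 0.0066, 0.0189, 0.055, 0.1784, 0.5259, 2.03, 6.5817 and 23.6726 µM in that order. Fluticasone propionate was labelled 0.003, 0.006, 0.01, 0.019, 0.034, 0.06, 0.1 and 0.19 µM, and measured at 0.0019, 0.0028, 0.0046, 0.0072, 0.0108, 0.0158, 0.0338 and 0.0597 µM. Groups are named by the label. Each of the 17 groups had 3 libraries, lettered A, B and C, made from pooled homogenates of whole larvae. Whether the 3 came from separate cultures is not in the labels, and the spread behind every p-value may therefore be technical.

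The 51 libraries held 1316614 to 2097358 reads in genes, of which 92334 to 165303 came from the 79 members. The 95% counting interval (exact binomial) of a library's ribosomal share was therefore at most 0.0893 percentage points wide. Reads that fell in no counted gene, called reads outside genes below, were 22.6 to 33.6% of all reads. They made up more than 30% of the reads in 6 of 24 dexamethasone libraries, in 1 of 24 fluticasone propionate libraries and in none of the 3 DMSO libraries. Defining markers of 8 tissues were searched for, and each tissue lacked some of them in the tables. Present were 5 of 6 for muscle, 3 of 6 for pancreas, 4 of 6 for liver and 3 of 5 for blood. For nerve and retina 4 of 6 were present, for lens 2 of 3 and for skin 3 of 5. All of these were read in every DMSO library. Of 5 myeloid markers, coro1a was read in every DMSO library and lyz was at 0, whereas mpx, lcp1 and mpeg1.1 were not among the ids.

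The members were abundant. Levels of single genes are given in CPM, the count of a gene relative to its library's total, scaled by TMM over all 51 libraries. Reads come from the 3′ end of transcripts, so the values are not divided by gene length. The median member had 853 CPM in DMSO, against 18.1 CPM for the median gene tested. The highest was rps18, of the head of the small subunit, at 2924 ± 125 CPM (SD, n = 3), followed by rps12 at 2735 ± 26.4 CPM, rps23, which lies at the decoding centre, at 2324 ± 103 CPM, the stalk protein rplp1 at 2273 ± 102 CPM and rps9 at 2245 ± 90 CPM. The last 3 of these lie within 1 SD of one another, so their order is not resolved. The lowest were rps26l at 267 ± 12.7 CPM, rps27l at 132 ± 7.62 CPM, rpl32 at 46.2 ± 4.99 CPM, rpl7l1 at 31 ± 3.66 CPM and rps19bp1 at 9.85 ± 2.04 CPM, each standing apart from the next. A second id that the reference table names rpl32 had 32.6 CPM in DMSO, so the level under 1 id may not be the whole level of that protein.

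Between the 17 groups the members moved little. The range of the group means had a median of 0.38 on the log2 scale over the members, against 0.73 over all genes tested, in which low genes with more counting noise are included. The widest ranges were those of rps19bp1 (0.91), rps13 (0.75), rpl7l1 (0.74), rpl32 (0.66) and rpl39 (0.63). Of these, rps19bp1, rpl7l1 and rpl32 had the lowest levels of all members in DMSO, so their ranges also hold more counting noise. The narrowest ranges were those of rpl27a, rpl27, rps9, rps10 and rps27.2, of which the smallest was 0.18. In 68 of the 79 members the lowest of the 17 group means was that of 0.8 µM dexamethasone, and the highest mean lay at 0.006 µM fluticasone propionate for 29, at 0.1 µM for 16 and at 0.01 µM for 14.

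The members' summed share of the reads in genes was also lowest in that group. At 0.8 µM dexamethasone the 3 libraries gave 6.24, 6.61 and 6.72%, against 7.66, 7.63 and 7.58% in DMSO. The mean was 6.53 ± 0.25% with dexamethasone and 7.63 ± 0.0399% in DMSO (SD, n = 3 each), a ratio of 0.856. From the lowest to the highest concentration of dexamethasone the mean share was 7.30, 7.06, 7.13, 7.03, 6.53, 6.89, 7.09 and 7.09%, and 22 of the 24 libraries were below all DMSO libraries. For fluticasone propionate it was 7.57, 7.73, 7.74, 7.31, 7.16, 7.23, 7.55 and 7.35%, and 12 of 24 libraries were below all DMSO libraries. Others with this compound lay above all DMSO libraries, up to 7.88%, against at most 7.66% in DMSO. No dexamethasone library did so, the highest being at 7.62%. The lowest dexamethasone share thus lay at a middle concentration, and the fluticasone propionate groups from 0.034 µM upward overlapped one another. The SD within a group reached 0.554 percentage points at 0.08 µM dexamethasone, against 0.0399 in DMSO.

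**Figure D1:**
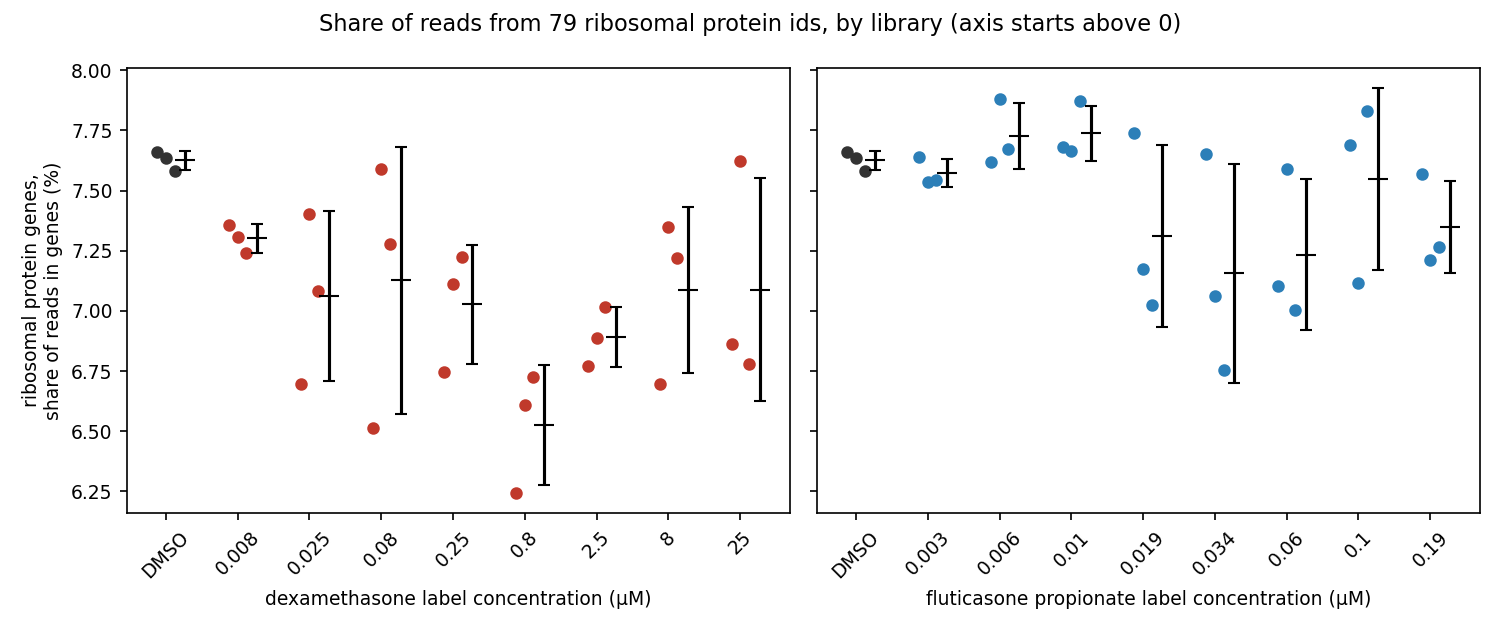
The share of reads in genes that came from the 79 ribosomal protein ids, in percent, for each library (points) by labelled concentration, with the mean and SD of each group (bars, n = 3). The 3 libraries at 0.8 µM dexamethasone lie between 6.24 and 6.72% and those of DMSO between 7.58 and 7.66%; several other groups hold 1 library well below or above the rest. The axis starts above 0.

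The balance between the subunits was compared as well. The ratio of reads from large-subunit ids to reads from small-subunit ids was 1.17 ± 0.0123 at 0.8 µM dexamethasone and 1.17 ± 0.00749 in DMSO (SD, n = 3 each). All 3 libraries at 2.5 µM dexamethasone (mean 1.19 ± 0.00522) and all 3 at 0.003 µM fluticasone propionate (mean 1.21 ± 0.00496) lay above every DMSO library (SD, n = 3 each); these differences were not tested. Over all 51 libraries the ratio lay between 1.16 and 1.21, while the summed share varied between 6.24 and 7.88%.

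The first comparison asked which members differed from DMSO after dexamethasone. At 0.8 µM, 31 of the 79 members fell and none rose (edgeR's quasi-likelihood test, Benjamini-Hochberg adjusted p under 0.05 over 18075 genes). Of all genes tested, 1.33% were called lower and 1.14% higher. The members' median log2 fold change was -0.30, a level of 0.813 times DMSO, against 0.0017 over all genes. The members were 0.437% of the genes tested and 12.9% of the 241 genes called lower. Of the 79, 78 had a negative value and 75 had all 3 libraries below all 3 DMSO libraries, a pattern seen in 11.3% of all genes. At an unadjusted p under 0.05, 66 members were counted, against 17.3% of all genes in either direction. These shares of all genes are not matched for level. The median member had 853 CPM in DMSO and the median gene tested 18.1 CPM, and low genes have more counting noise. In whole-body RNA, fewer cells of a type and less RNA per cell cannot be told apart.

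The smallest p belonged to rpl39, a very short protein at the exit of the peptide tunnel. Its level was 446, 512 and 480 CPM at 0.8 µM dexamethasone, against 762, 719 and 745 CPM in DMSO, a log2 fold change of -0.63 ± 0.11 (edgeR adjusted p = 0.000835). All 3 dexamethasone libraries were far below the lowest DMSO library. For rps15a, a protein of the small subunit, the values were 684, 775 and 780 CPM, against 1075, 1008 and 1066 CPM in DMSO, a log2 fold change of -0.49 ± 0.10 (edgeR adjusted p = 0.00587). The level of rpl11, which in mammals also binds the p53 regulator Mdm2, was 612, 682 and 700 CPM with dexamethasone, against 957, 924 and 917 CPM in DMSO, a log2 fold change of -0.49 ± 0.10 (edgeR adjusted p = 0.00752). In each of these genes library A of the dexamethasone group was the lowest, and no library of one group reached the other.

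The small-subunit protein rps26, which lies where messenger RNA leaves the ribosome, had 490, 550 and 550 CPM at 0.8 µM, against 707, 749 and 750 CPM in DMSO (log2 fold change -0.47 ± 0.10, edgeR adjusted p = 0.00948). For rps21 the values were 462, 541 and 565 CPM, against 704, 667 and 704 CPM in DMSO (log2 fold change -0.40 ± 0.10, edgeR adjusted p = 0.0156). The groups did not overlap in either gene. Of the wide-ranging members, rps13 fell by 0.53 ± 0.13 on the log2 scale (edgeR adjusted p = 0.0237), with 172, 263 and 235 CPM in dexamethasone and 316, 350 and 304 CPM in DMSO. Here 1 dexamethasone library was much lower than the others, but all 3 were below DMSO.

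Both subunits were represented. Of 45 large-subunit ids 15 fell, with a median of -0.27 over all 45, and of 34 small-subunit ids 16 fell, with a median of -0.32. All 45 large-subunit values were negative. Among the members without rps19bp1 and the ids named as like another, 29 of 73 fell. Split by mean level over all libraries, 6 of the 26 highest members fell (median -0.24), 13 of the 26 in the middle (-0.33) and 12 of the 27 lowest (-0.38). None of the 5 most abundant members was called: the log2 fold changes were -0.20 ± 0.09 for rps18, -0.18 ± 0.09 for rps12, -0.26 ± 0.11 for rps23, -0.25 ± 0.09 for rplp1 and -0.16 ± 0.09 for rps9. The spread of the 79 values was 0.12 (SD, log2 scale) and their median standard error 0.10. The errors come from the same libraries for all members and reach 0.42 at low counts. These figures therefore do not show whether the members differed from one another beyond their errors.

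**Figure D2:**
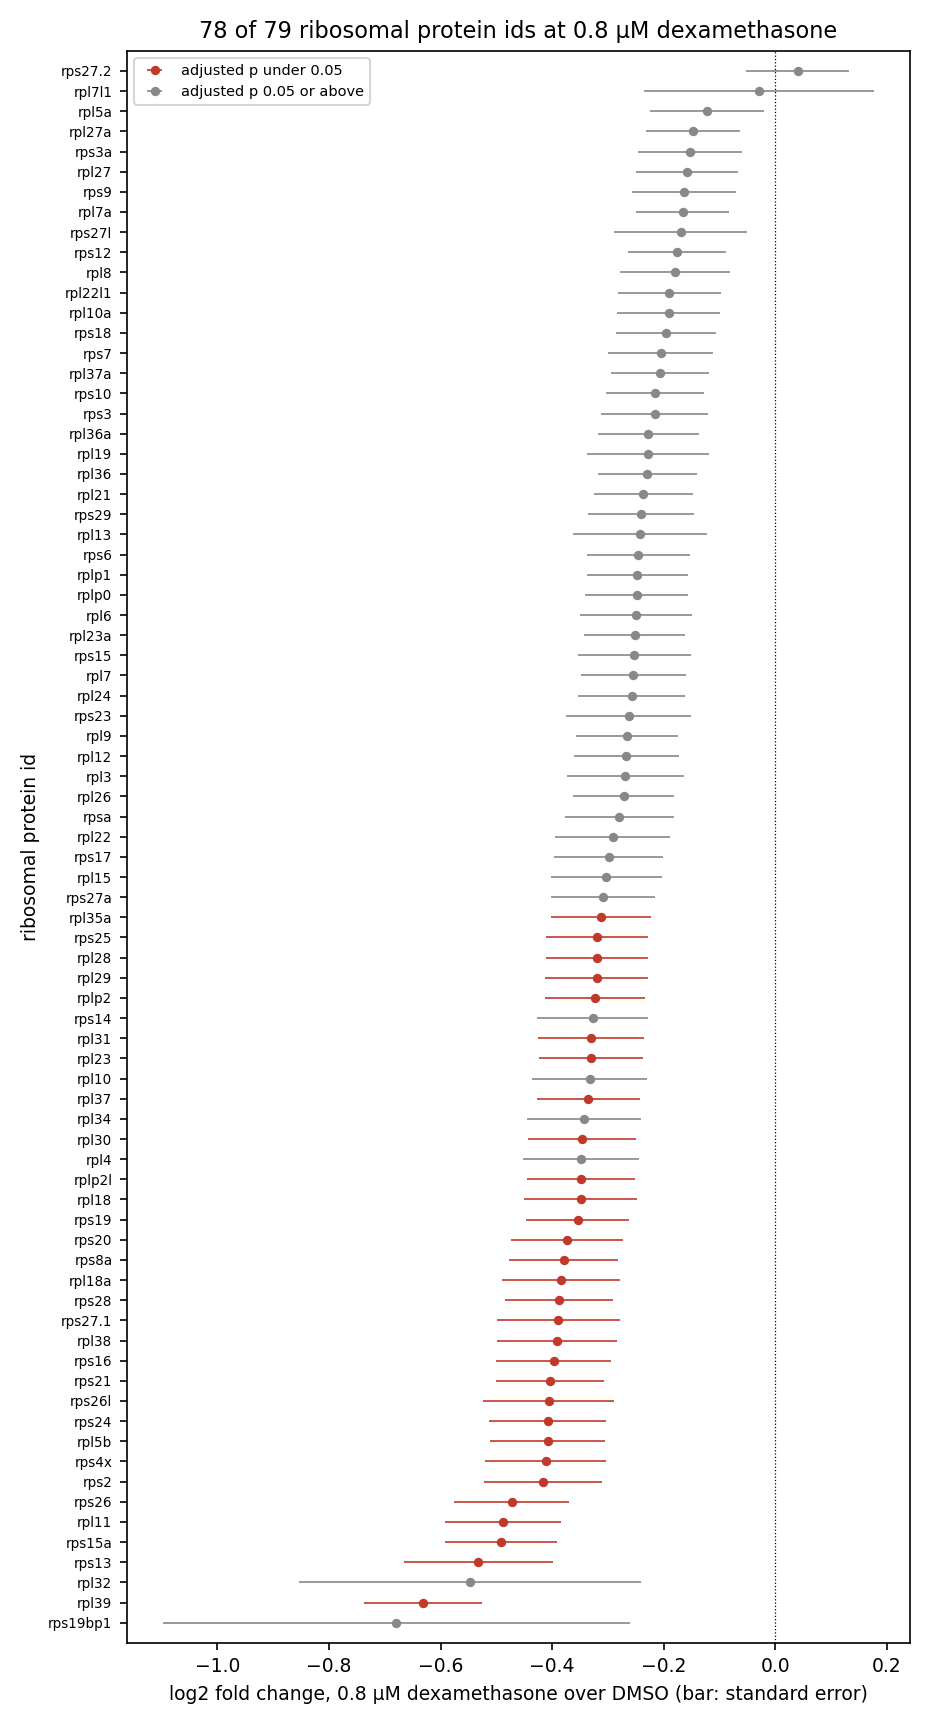
The log2 fold change of 78 of the 79 ribosomal protein ids at 0.8 µM dexamethasone over DMSO, with its standard error (bars). The ids in red have an adjusted p under 0.05; all but rps27.2 lie below 0, and the low-count ids rps19bp1 and rpl32 have the widest bars.

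The values of rplp0, rplp1, rplp2, rps6, rpsa and rps27a lay nearer the members' median than that of rpl11 did. Of the acidic stalk, which recruits the elongation factors, rplp2 fell by 0.32 ± 0.09 on the log2 scale (edgeR adjusted p = 0.0369), while rplp0 and rplp1 had values of -0.25 ± 0.09 each and were not called (edgeR adjusted p = 0.133 and 0.127). For rps6, the substrate of the S6 kinases, the value was -0.25 ± 0.09 (edgeR adjusted p = 0.143), and for rpsa, also known as a laminin receptor, -0.28 ± 0.10 (edgeR adjusted p = 0.106). The ubiquitin fusion gene rps27a had a value of -0.31 ± 0.09 (edgeR adjusted p = 0.0588). The low-count ids rps19bp1 (-0.68 ± 0.42) and rpl32 (-0.55 ± 0.31) had large values with wide errors and were not called.

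Copies of the same protein did not all have the same value. For rps27.2 the level was 702, 583 and 643 CPM at 0.8 µM dexamethasone, against 643, 617 and 611 CPM in DMSO, a log2 fold change of 0.04 ± 0.09 with a 95% interval of -0.14 to 0.23. Its groups overlapped, and it was the single member with a positive value. Its copy rps27.1 had 226, 280 and 269 CPM, against 314, 334 and 370 CPM in DMSO, and fell by 0.39 ± 0.11 on the log2 scale (edgeR adjusted p = 0.0402). The ratio of rps27.2 to rps27.1 was 2.52 ± 0.53 with dexamethasone and 1.85 ± 0.199 in DMSO (SD, n = 3 each), the lowest ratio with dexamethasone being 2.08 and the highest in DMSO 2.05.

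For rpl5, a partner of rpl11 in carrying the smallest ribosomal RNA of the large subunit, the copy rpl5b had 258, 308 and 314 CPM with dexamethasone, against 416, 363 and 389 CPM in DMSO, and fell by 0.41 ± 0.10 on the log2 scale (edgeR adjusted p = 0.0221). The copy rpl5a had 366, 423 and 420 CPM, against 429, 445 and 442 CPM in DMSO, with a value of -0.12 ± 0.10 and a 95% interval of -0.33 to 0.083. The ratio of rpl5a to rpl5b was 1.38 ± 0.0391 with dexamethasone and 1.13 ± 0.0969 in DMSO (SD, n = 3 each), with no overlap. These pairs were picked out after their values were seen, and their ratios were not tested. The ratio of rpl22 to rpl22l1 was 1.06 ± 0.031 with dexamethasone and 1.14 ± 0.0613 in DMSO (SD, n = 3 each), again with no overlap, although neither gene was called. In the other pairs the groups overlapped: rplp2 over rplp2l was 0.88 ± 0.0932 with dexamethasone and 0.866 ± 0.0439 in DMSO, and rps26 over rps26l was 2.64 ± 0.0348 with dexamethasone and 2.76 ± 0.184 in DMSO (SD, n = 3 each). Reads that aligned to several places, 10.6 to 12.2% of all reads, are not in the counts, so levels of near-identical copies are uncertain.

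**Figure D3:**
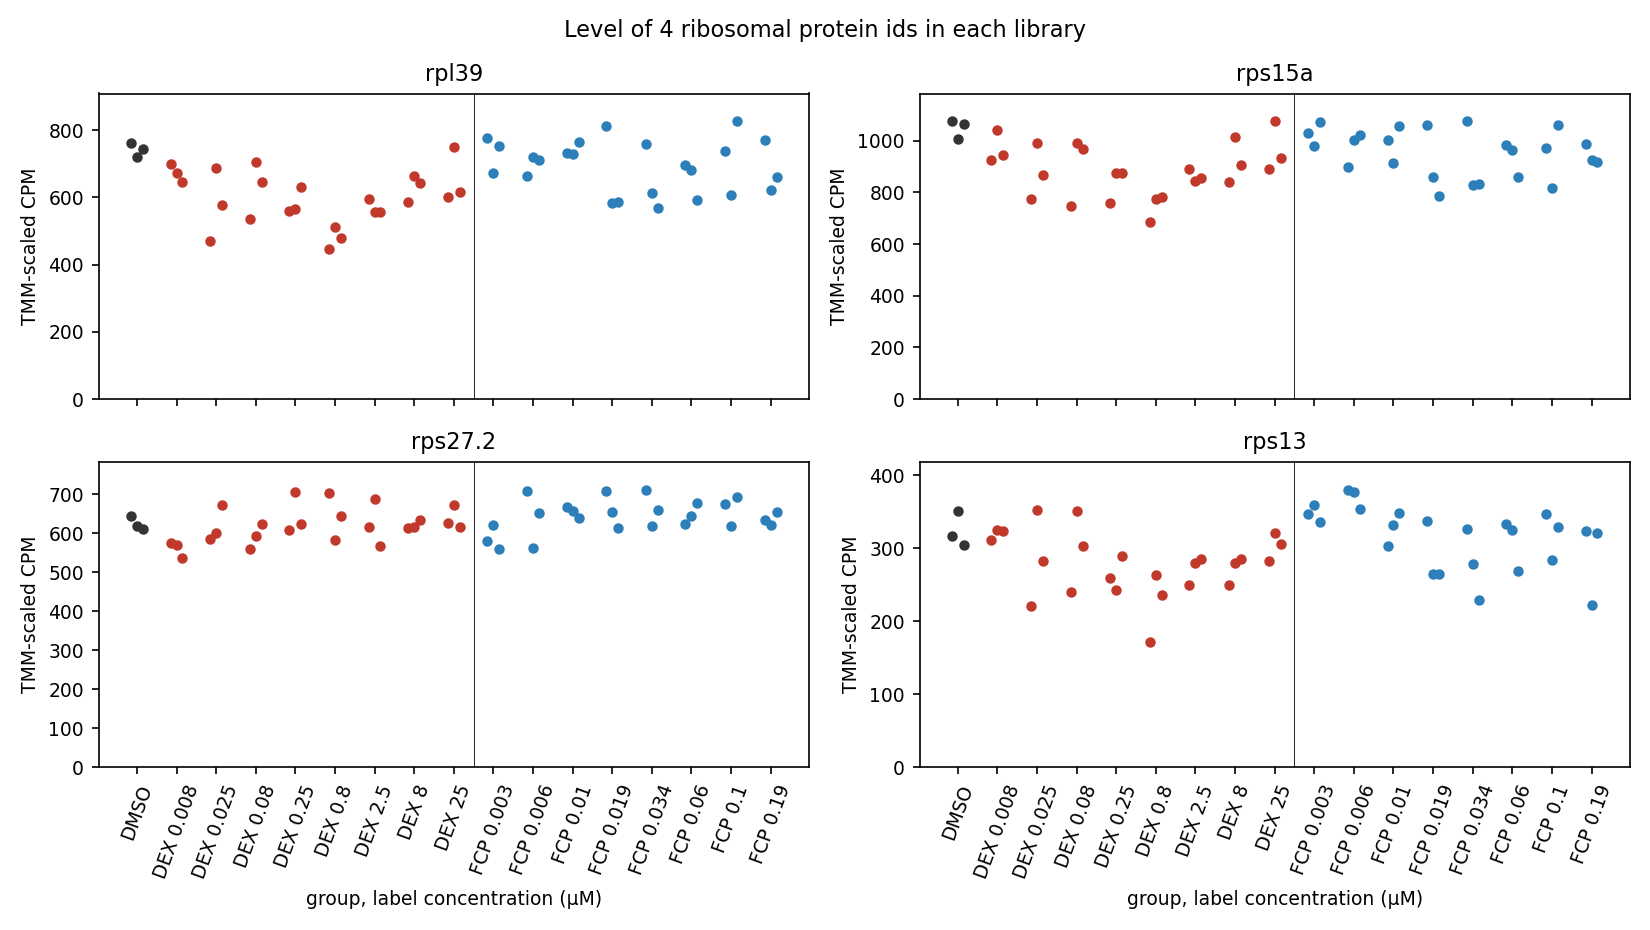
TMM-scaled CPM of rpl39, rps15a, rps27.2 and rps13 in each of the 51 libraries (points, 3 per group), by labelled concentration with DMSO at the left. The group means of rpl39, rps15a and rps13 are lowest at 0.8 µM dexamethasone, and single libraries of rps27.2 stay between 536 and 711 CPM throughout. Axes start at 0.

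The share of reads outside genes differed with these values. It was 33.6, 28.9 and 28.8% in libraries A, B and C at 0.8 µM dexamethasone, against 24.5, 25.2 and 25.3% in DMSO, and the first of these was the highest of all 51 libraries. In a fit with that share as a further term, 0 of the 79 members were called at 0.8 µM by edgeR (13 at an unadjusted p under 0.05), and 4 genes were called in all. Without library A of that group 1 member was called, rpl39, and without each of the others 20 and 18. Without a DMSO library (A, B or C) the counts were 4, 3 and 8. Leaving out every dexamethasone library above 30% gave 14 members, all lower and all among the 31, with that group then at 2 libraries that are assumed to vary like the other groups. For the fits with libraries left out, the share of all genes called is not given here. The members' median at 0.8 µM was negative under every alternative run, from -0.32 to -0.09.

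Across all libraries, those with more reads outside genes had a lower ribosomal share. The median ribosomal share was 7.65% in the 9 libraries with up to 25% of reads outside genes and 6.70% in the 7 with more than 30%. Within groups, the library with the lowest ribosomal share was also the one with the most reads outside genes in 7 of 8 dexamethasone groups and in 4 of 8 fluticasone propionate groups. At 0.08 µM dexamethasone, for example, libraries A, B and C had ribosomal shares of 6.51, 7.59 and 7.28% and 32.6, 25.7 and 27.4% of reads outside genes. At 0.019 µM fluticasone propionate the shares were 7.74, 7.17 and 7.02%, with 25.4, 29.7 and 32.1% outside genes. In both groups the ribosomal share was lower in libraries with more reads outside genes. Others did not follow that order: libraries A and C at 25 µM dexamethasone had ribosomal shares of 6.86 and 6.78% with 26.7 and 26.4% of reads outside genes. Beyond the fits with this term, the part of the reads outside genes in the differences between groups was not tested.

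**Figure D4:**
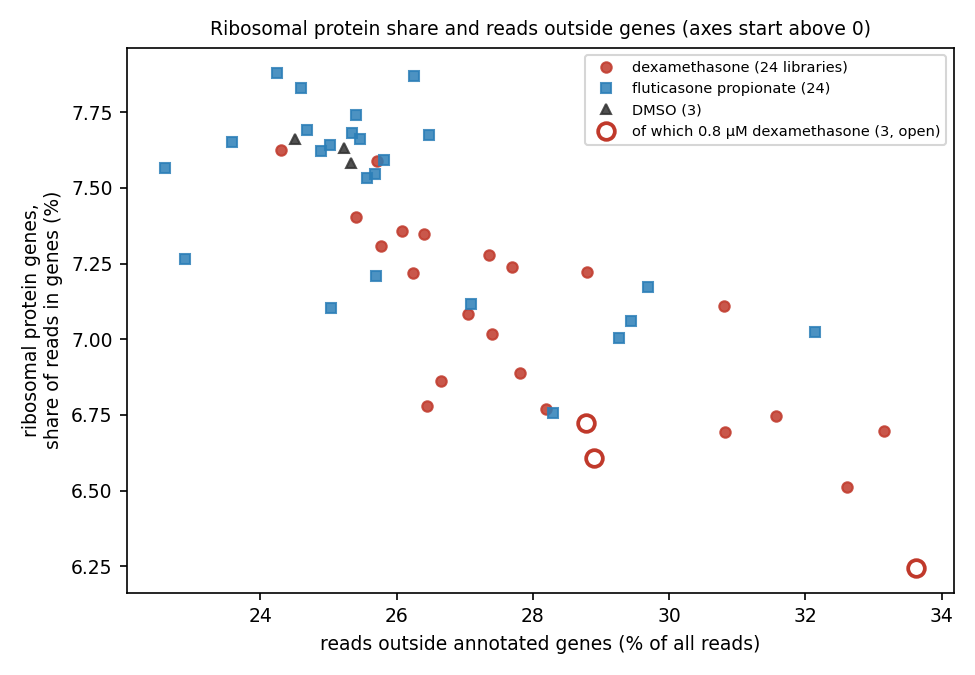
The share of reads in genes from the 79 ribosomal protein ids against the share of all reads that fell outside genes, both in percent, for each of the 51 libraries. Libraries with over 30% outside genes lie between 6.24 and 7.11% on the vertical axis, and DMSO libraries between 7.58 and 7.66%. Both axes start above 0.

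At the other 7 dexamethasone concentrations no member passed the threshold in either direction (edgeR). Of all genes, 0% were called at 0.008, 0.025 and 0.08 µM. At 0.25, 2.5, 8 and 25 µM the percentages were 0.0166, 0.133, 0.194 and 1.32. By DESeq2 these 7 counts of members were also 0. The members' values were nevertheless mostly on one side: negative for 76, 78, 76, 77, 78, 77 and 72 of 79 members in order of concentration. The medians were -0.08, -0.15, -0.14, -0.17, -0.18, -0.14 and -0.09 on the log2 scale. Over the alternative runs the median at 0.25 µM ran from -0.19 to 0.03. It stayed negative at the other concentrations, but came as near to 0 as -0.02 at 0.008 and 0.08 µM. The mean share of reads outside genes was 30.4% at 0.25 µM, as at 0.8 µM, against 25.0% in DMSO. Each of these comparisons uses the same 3 DMSO libraries, so they are not independent of one another.

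The concentrations next to 0.8 µM came nearest to it. At 2.5 µM, 31 of 79 members had an unadjusted p under 0.05, against 9.63% of all genes, and 60 had no overlap with DMSO on the low side, against 9.41% of all genes. At 0.25 µM the same counts were 26, against 11.2%, and 53, against 8.99%. When the 6 libraries compared were fitted alone, 20 members fell at 2.5 µM and 9 at 0.25 µM. At 2.5 µM, 6 members fell in the fit without dexamethasone libraries above 30% outside genes, none of which belong to that group. The share of all genes called in these alternative fits is not given here, so the counts of 20, 9 and 6 have no background beside them. The value of rpl39 was -0.38 ± 0.11 at 2.5 µM (595, 556 and 558 CPM), with an edgeR adjusted p of 0.152, and -0.35 ± 0.11 at 0.25 µM (559, 564 and 631 CPM), with an edgeR adjusted p of 0.196. All of these are below the 719 to 762 CPM of DMSO.

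At 25 µM, the highest concentration, 1 member had an unadjusted p under 0.05, against 10.1% of all genes, and 4 had no overlap with DMSO on the low side, against 8.02% of all genes. Library B of that group had 5 members below all DMSO libraries and 43 above all of them, whereas libraries A and C had 72 and 65 below. For single libraries the share of all genes is not given here, so these counts have no background beside them. The level of rpl39 was 602, 751 and 616 CPM in libraries A, B and C, and the groups overlapped. At the median member, taken as the medians over members of the lower and of the upper bound, the 95% interval of the log2 fold change at 25 µM ran from -0.29 to 0.11. Without library B, which had the highest ribosomal share of the 3, the members' median at 25 µM was -0.17. Leaving out the highest library lowers the median, and over all alternative runs it lay between -0.17 and -0.05. At 8 µM, 11 members had an unadjusted p under 0.05, against 9.01% of all genes, and 33 had no overlap on the low side, against 7.94%. At 0.008, 0.025 and 0.08 µM the unadjusted counts were 0, 10 and 9, against 3.45, 6.94 and 5.82% of all genes. The counts with no overlap on the low side were 20, 35 and 19, against 4.99, 6.02 and 5.41% of all genes.

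**Figure D5:**
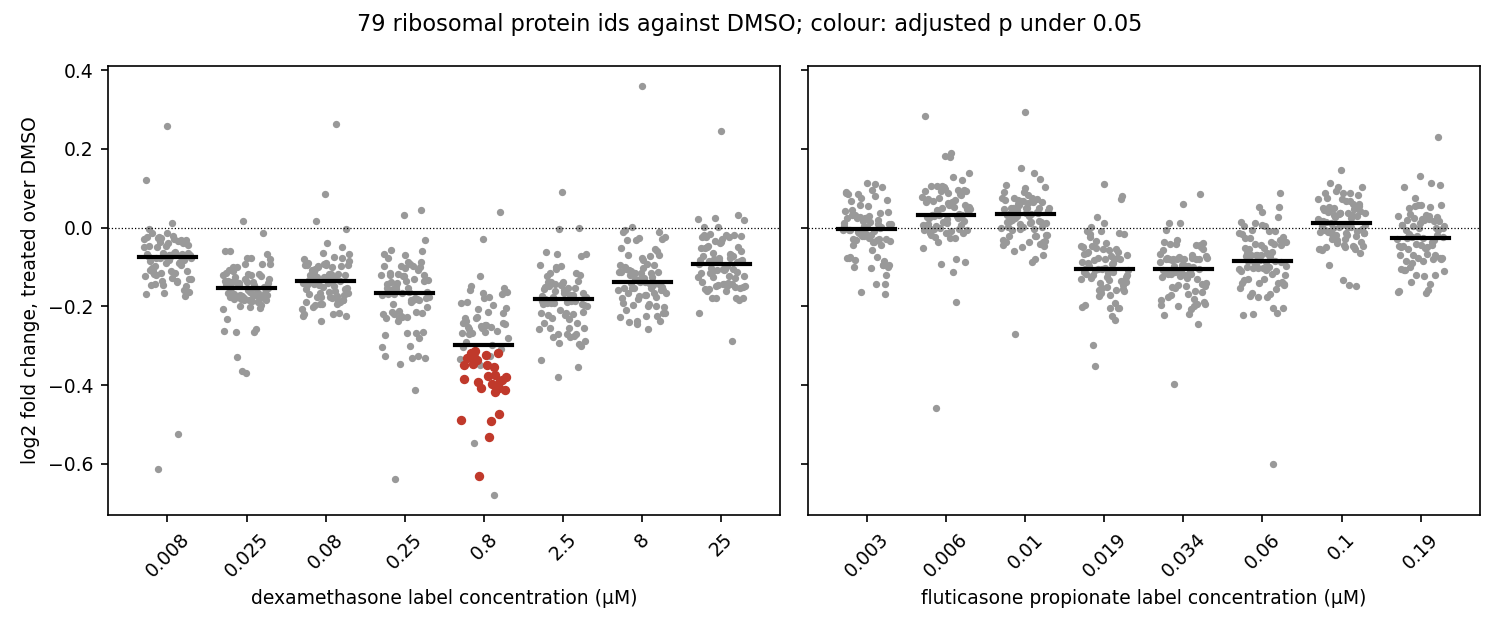
The log2 fold change of each of the 79 ribosomal protein ids over DMSO (points) at each labelled concentration of dexamethasone and of fluticasone propionate, with the median (black bars). Coloured points have an adjusted p under 0.05 and occur at 0.8 µM dexamethasone. The dexamethasone medians lie between -0.30 and -0.08, and the fluticasone propionate medians between -0.10 and 0.03.

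Fluticasone propionate was compared with DMSO in the same way. No member passed the threshold at any of its 8 concentrations with edgeR or with DESeq2. Of all genes, edgeR called 0.00559% at the lowest concentration and 0% at the next 4. At 0.06, 0.1 and 0.19 µM the percentages were 0.0168, 0.0727 and 0.246. The members' medians were -0.0027, 0.03, 0.03, -0.10, -0.10, -0.08, 0.01 and -0.03 on the log2 scale in order of concentration. Negative values numbered 40, 22, 23, 73, 75, 69, 33 and 50 of 79.

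By these medians the 3 middle groups, from 0.019 to 0.06 µM, stood below the others, and their libraries were split. The mean share of reads outside genes was 26.7 to 29.1% in these groups, against 23.7 to 25.7% in the other fluticasone propionate groups. Over the alternative runs the members' median at 0.019 µM ran from -0.17 to 0.05, so its sign was not stable. Those at 0.034 and 0.06 µM stayed negative. In summed share, all 3 libraries at 0.19 µM were below all DMSO libraries, at 7.21 to 7.57%, against 2 in each middle group. At 0.034 µM libraries B and C had 70 and 73 members below all DMSO libraries and library A had 9. The share of all genes in these single libraries is not given here. Counts at an unadjusted p under 0.05 were 7, 9 and 5 members at 0.019, 0.034 and 0.06 µM, against 7.15, 5.71 and 4.96% of all genes. At the other concentrations they were 0, except for 1 at 0.006 µM, against 3.1, 3.69, 3.51, 5.6 and 7.61% of all genes at 0.003, 0.006, 0.01, 0.1 and 0.19 µM. Members with no overlap with DMSO on the low side numbered 5, 1, 0, 12, 7, 14, 1 and 6 in order of concentration, against 5.02, 4.2, 4.79, 6.21, 5.71, 5.64, 5.92 and 6.7% of all genes. At 0.19 µM the level of rpl39 was 770, 620 and 661 CPM, which spans the values of DMSO on both sides, and that of rps13 was 324, 223 and 321 CPM. The 95% interval of the median member at 0.19 µM ran from -0.22 to 0.15.

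A further comparison asked whether the members followed concentration within the treated libraries, without DMSO. With dexamethasone the slopes per log10 unit of concentration had a median of -0.01 over the members and -0.0038 over all genes. None was called by edgeR, while 2.16% of all genes were, and 2 had an unadjusted p under 0.05, against 11.4% of all genes. With fluticasone propionate the median slope was -0.03, against -0.0029 over all genes. None of the members was called by edgeR, while 1.58% of all genes were, and 10 had an unadjusted p under 0.05, against 11.4% of all genes. The 2 smallest p belonged to rpl13, at -0.13 ± 0.05 (edgeR adjusted p = 0.202), and rps13, at -0.15 ± 0.06 (edgeR adjusted p = 0.217).

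When the fit also held the share of reads outside genes, calls appeared in both trends. For dexamethasone 2 members fell with concentration, among them rpl13 (-0.07 ± 0.02, edgeR adjusted p = 0.0271). For fluticasone propionate rps13 (-0.18 ± 0.04, edgeR adjusted p = 0.00651), rplp2l, rps26, rplp1 and rpl13 (-0.14 ± 0.04, edgeR adjusted p = 0.0421) did so. The id rpl13, of the large subunit, was the single member called in both of these fits. The share of all genes called in them is not given here.

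The compounds were set against each other at the 3 pairs of groups whose measured concentrations were nearest. These were 0.055 µM dexamethasone and 0.0597 µM fluticasone propionate, 0.0189 and 0.0158 µM, and 0.0066 and 0.0072 µM, named below by their labels. At 0.08 µM dexamethasone against 0.19 µM fluticasone propionate the members' median difference was -0.10 on the log2 scale, lower with dexamethasone, and 0.0089 over all genes. No member was called by edgeR over 18606 genes, of which 0.344% were, and 11 members had an unadjusted p under 0.05, against 10.5% of all genes. The smallest p was that of rps27l, a copy of rps27 (-0.42 ± 0.13, edgeR adjusted p = 0.124, 95% interval -0.67 to -0.17). The median member's interval ran from -0.30 to 0.08, and 15 members had all 3 dexamethasone libraries below all 3 of fluticasone propionate, against 7.93% of all genes. When the fit also held the share of reads outside genes, the median difference was positive and 1 member was called, rps13, higher with dexamethasone (0.39 ± 0.09, edgeR adjusted p = 0.0361). That share was 28.6 ± 3.61% in the dexamethasone group and 23.7 ± 1.71% in the fluticasone propionate group (SD, n = 3 each). For the fit with this term, the share of all genes called is not given here.

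At 0.025 µM dexamethasone against 0.06 µM fluticasone propionate the median difference was -0.07, with an interval of -0.25 to 0.12 at the median member. At 0.008 µM dexamethasone against 0.019 µM fluticasone propionate it was 0.02, with an interval of -0.17 to 0.22. In each of these pairs no gene of any kind was called by edgeR (0% of all genes), and 1 member had an unadjusted p under 0.05, against 4.36 and 5.44% of all genes. All 3 dexamethasone libraries were below those of fluticasone propionate in 4 and 3 members, against 4.54 and 4.71% of all genes. Each of these intervals holds differences in both directions, so the compounds are not shown to act alike on these genes.

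Other parts of the translation machinery were counted from lists of names. Of the ribosomal proteins outside the naming rule, 7 were tested at 0.8 µM dexamethasone. All 7 had negative values, with a median of -0.43. Those of faua (-0.69 ± 0.60) and of the second rpl32 id (-0.53 ± 0.83) had wide errors. The id rack1, a scaffold protein of the small subunit, fell by 0.43 ± 0.11 on the log2 scale (edgeR adjusted p = 0.0181). Of 53 translation factors 4 fell and none rose, with a median of -0.19: eif4h, a helper of the initiation helicase (-0.61 ± 0.14), eif5a2 (-0.62 ± 0.16), the initiation factor subunit eif3f (-0.51 ± 0.13) and the elongation factor eef2b (-0.39 ± 0.11). Among 77 genes of ribosome biogenesis, which make and assemble the particle in the nucleolus, none was called and the median was -0.05. Among 39 genes of mTOR and growth control 1 rose, the S6 kinase rps6kb1a (0.77 ± 0.17), and none fell. None of 68 mitochondrial ribosomal proteins was called, with a median of -0.19. Of all genes tested at 0.8 µM, 1.33% were called lower and 1.14% higher. Differences between lists were not tested.

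The same lists were counted at the highest concentrations. At 25 µM dexamethasone none of the 53 translation factors, 77 biogenesis genes or 68 mitochondrial ribosomal proteins was called. Of all genes, 1.32% were called in either direction at that concentration. Of the 39 growth control genes 4 rose: rps6kb1a (1.51 ± 0.17), the elongation factor kinase eef2k (1.15 ± 0.19), the mTOR inhibitor ddit4 (1.71 ± 0.26) and eif4ebp3l, of the translation repressors that bind the cap-binding factor (0.76 ± 0.14). At 0.19 µM fluticasone propionate rps6kb1a rose (1.2 ± 0.14) and no other gene of these lists was called. There 0.246% of all genes were called in either direction. In the trends, 3 of the 77 biogenesis genes rose with dexamethasone concentration (rrs1, noc2l and rrp12) and 7 with fluticasone propionate concentration, among them ddx21 at 0.31 ± 0.06 and ddx27 at 0.62 ± 0.13 per log10 unit. No gene of that list fell in either trend, in which none of the 79 ribosomal protein members was called. Of all genes, 2.16% were called in either direction in the dexamethasone trend and 1.58% in the fluticasone propionate trend.

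Markers of tissues and of dividing cells were counted in the same libraries. Their sums are counts relative to all reads in genes, also in CPM but without TMM scaling, over all ids of a list in the table. At 0.8 µM dexamethasone the sum of 15 proliferation genes, 13 of them tested, was 345 to 459 CPM, against 496 to 676 CPM in DMSO, and pcna (-0.99 ± 0.19), rrm1 and mki67 were called lower. That of 21 skeletal muscle genes was 67780 to 77076 CPM, against 78413 to 80310 CPM in DMSO, with 4 called lower, among them tnnc2 and acta1b. That of 5 skin genes was 2434 to 3237 CPM, against 3532 to 3895 CPM in DMSO, with 3 called lower (col1a1a, krt5 and agr2). The sum of 13 nerve and retina genes, 11 of them tested, was 3681 to 3738 CPM, against 3759 to 3965 CPM in DMSO, with opn1sw2 called lower. The sums for pancreas, liver, erythroid, lens and myeloid genes overlapped between the groups, with cpa1, cpa4 and ahsg1 called lower among them. Of all genes tested at 0.8 µM, 1.33% were called lower. At 25 µM the proliferation sum was lower still, at 270 to 308 CPM. The part of these tissues and of dividing cells in the members' values was not tested.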

How the data were processed

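Per the labels' protocols, whole larvae were homogenised and pooled, and their RNA was sequenced as 3′ tags with molecular identifiers. Tools listed in the submitters' processing notes are edgeR, HTSeq 2.0.1, STAR 2.7.10a, MultiQC 1.12, FastQC and bcl2fastq 2.20.0. The sources used here give no genome build, strand setting or use of the identifiers. Exact binomial intervals of shares cover counting error only and take each read as independent, although the use of the identifiers is not known. The 95% intervals of log2 fold changes come from the edgeR fit and include the spread between libraries. The authors deposited counts per gene in 1 table per compound, with the same 3 DMSO columns in both, and no sample column was left unused. Rows of unassigned reads, 22.6 to 33.6% in no gene, 10.6 to 12.2% aligned to several places, 6.94 to 8.77% unaligned and 0.592 to 0.802% ambiguous, stayed out of library sizes and tests.

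Low genes were removed by filterByExpr (at least 10 counts and 15 in total) and the rest scaled by TMM and tested with edgeR 4.0.16 in R 4.3.3 (quasi-likelihood F-test, robust, Benjamini-Hochberg, threshold 0.05). Each compound's 24 libraries and DMSO formed 1 fit, slopes were fitted on log10 of each label's exact nominal value in treated libraries alone, and pairs used all 51. Standard errors are those of the log2 fold change. Levels were ranked on mean CPM in DMSO. Ranges and each member's lowest and highest group were taken from group means of log2(CPM + 1). Alternatives included DESeq2 1.42.0. The code was tested on simulated counts, and replicates were checked and are not duplicates.

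The members and lists were chosen with earlier results of these data known. Members named were the 5 called with the smallest p in each direction, the 5 highest and lowest levels, the 5 widest and narrowest ranges, the stalk, rpsa, rps6 and ids with a copy suffix, and rpl13 and rps27a were named after their values were seen. Values of 2 ids are not reported here. Of 17174 LOC-numbered ids, 2292 took a symbol from the table of assembly fPimPro1.hap1.1. No sequences or coordinates were used.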

Additional observations from a re-analysis of the deposited data

How the results depend on the processing

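The count of members called at 0.8 µM dexamethasone was 31. It was 41 with DESeq2, 31 with RLE scaling, 33 with scaling without the members, 28 with no filter and 35 in the 6 compared libraries, all lower and each set holding at least 26 of the 31. It was 0 when the fit also held the share of reads outside genes and 14 without dexamethasone libraries above 30% outside genes, and leaving out 1 library gave 1 to 20. With that term 2 members were called in the dexamethasone trend, 5 in the fluticasone propionate trend and 1 at 0.08 µM dexamethasone against 0.19 µM fluticasone propionate, in place of 0 each. At 2.5 and 0.25 µM dexamethasone, where 0 were called, the 6 compared libraries gave 20 and 9, and the fit without libraries above 30% gave 6 at 2.5 µM. Some of these fits hold fewer libraries, and otherwise the cause was not tested. For most alternative fits, here and above, the share of all genes called is not set beside the members' counts. Whether such counts are particular to the members can therefore not be read from them. Deviations of treated libraries correlated at most at 0.0879 with those of the DMSO library of the same letter, so the letters were not taken to pair treated with DMSO libraries. Between dexamethasone groups the same-letter correlations ran from -0.07 to 0.25, with all 3 letters over 0.1 in 1 of 28 pairs of groups, and between fluticasone propionate groups from -0.13 to 0.25, with none of 28. With the replicate block 45 members were called at 0.8 µM, 2 at 2.5 µM and 1 at 0.25 µM, and none in the other comparisons. With 3 libraries a group, the 95% interval of the median member at 0.8 µM ran from -0.49 to -0.08, and changes much smaller than its width were not detectable.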

Other observations

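In 6 of the 8 dexamethasone groups the library lettered A had the lowest ribosomal protein share of the 3, and in all 6 it also had the most reads outside genes. In the fluticasone propionate groups A was lowest in 1 of 8, B in 4 and C in 3. The labels do not say what the letters stand for, and this count was made after the values were seen.

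Mitochondrial ribosomal proteins, which are encoded by other genes and serve the organelle's own ribosome, summed to 1039 to 1280 CPM (without TMM scaling) over 71 genes, 68 of them tested, at 0.8 µM dexamethasone, against 1223 to 1295 CPM in DMSO, and these ranges overlapped. None of the 68 was called by edgeR at that concentration.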
